A study of Homo sapiens with 6 samples.

Results

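The THO and TREX mRNA export machinery was described in RNA sequencing of TE-1 cells, an established line of human esophageal squamous cell carcinoma (ESCC). Its members were taken by gene symbol: the THO subunits THOC1, THOC2, THOC3, THOC5, THOC6 and THOC7, the helicases DDX39A and DDX39B, the adaptor ALYREF and the receptor NXF1. All 10 were among the 12180 genes of the gene table, and 55 of the 33090 entries of the transcript table belonged to them. The study compared 3 NC libraries with 3 FGL1-OE libraries to look for genes downstream of FGL1, a secreted fibrinogen-like protein. The paper describes FGL1-OE cells with a lentiviral FGL1 construct, NC cells with a random nonsense sequence, and stable lines kept after puromycin selection. The sample labels call the sequenced controls WT, and the paper does not say which control cells were sequenced. They are called NC here. Whether vector and selection are shared by the groups is therefore not known. No irradiated sample was part of this comparison. The sources do not say whether the 3 libraries of a group came from separate cultures, so p-values measure the spread between these libraries, which may be technical.

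THO is a multisubunit complex that is loaded on nascent pre-mRNA during transcription and splicing. Together with a DEAD-box helicase and the RNA-binding adaptor ALYREF it forms TREX (transcription-export). TREX hands the mature mRNA to NXF1, which carries it through the nuclear pore, and loss of THO subunits is known to cause nuclear retention of mRNA and RNA:DNA hybrids.

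The values were FPKM, fragments scaled for gene length and library size, on which genes of different length can be compared. FGL1 itself measured 0.0202, 0 and 0.106 FPKM in the controls and 33.5, 39.3 and 39.9 FPKM under FGL1-OE, so that the groups matched their labels. The depth of the libraries is unknown. Of 10 squamous epithelial markers 8 were listed (KRT14 and SOX2 were not), with a summed level of 423 to 700 FPKM in NC and 593 to 683 FPKM in FGL1-OE. The sum came mostly from SFN (198 to 459 FPKM in NC, 305 to 378 FPKM in FGL1-OE) and KRT6A (108 to 160 FPKM in NC, 183 to 197 FPKM in FGL1-OE). Over all libraries TP63 was at only 0.299 to 0.779 FPKM and KRT5 at 4.27 to 6.24 FPKM. Of 10 markers of fibroblasts, immune and endothelial cells 4 were listed, with a summed level of 8.03 to 10.4 FPKM in NC and 6.93 to 11.5 FPKM in FGL1-OE. PTPRC, CD3E, PECAM1, VWF, COL3A1 and DCN were not listed. The NC libraries were less alike than the FGL1-OE libraries. Across genes NC 1 and NC 2 correlated at 0.885, NC 2 and NC 3 at 0.950 and NC 1 and NC 3 at 0.964, against 0.981 to 0.986 between FGL1-OE libraries. With the FGL1-OE libraries NC 1 correlated at 0.935 to 0.953, NC 2 at 0.955 to 0.971 and NC 3 at 0.978 to 0.982.

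In the transcript table a THOC1 and a THOC6 transcript that each lack 1 exon were listed at 0 in every NC library, and their sequences are shown for that reason. THOC1 lies at chr18:214520-268050 and THOC6 at chr16:3074028-3077756 on GRCh37, the build of the tables. THOC1-221 (ENST00000631280) skips exon 4 of the 21 exons of THOC1, an exon of 67 bases on the minus strand at chr18:264026-264092 (GRCh38). THOC6-201 (ENST00000253952) skips exon 12 of the 13 exons of THOC6, an exon of 135 bases on the plus strand at chr16:3027366-3027500 (GRCh38). These sequences from the GENCODE v29 transcripts show, 5′ to 3′, each exon in capitals between 20 bases of its neighbouring exons, and the junction that skipping makes, with the last base before it and the first base after it in capitals:
THOC1 exon 4 with flanks: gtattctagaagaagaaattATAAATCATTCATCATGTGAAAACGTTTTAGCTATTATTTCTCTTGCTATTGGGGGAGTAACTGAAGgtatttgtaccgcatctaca
THOC1 skipping junction: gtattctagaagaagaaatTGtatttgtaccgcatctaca
THOC6 exon 12 with flanks: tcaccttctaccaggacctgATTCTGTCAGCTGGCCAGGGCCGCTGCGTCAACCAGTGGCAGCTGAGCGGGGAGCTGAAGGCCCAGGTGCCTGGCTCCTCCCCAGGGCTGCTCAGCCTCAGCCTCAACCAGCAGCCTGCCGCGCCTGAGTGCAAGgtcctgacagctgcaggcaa
THOC6 skipping junction: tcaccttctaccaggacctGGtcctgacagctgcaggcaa
The THOC1 exon is not a multiple of 3 bases long, and the annotated coding stretch of THOC1-221 is 363 bases against 1971 bases in the full-length THOC1-201. The THOC6 exon keeps the frame, and the coding stretch of THOC6-201 is 888 bases against 1023 bases in THOC6-202.

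THOC1-221 was listed at 0 in each NC library, whereas FGL1-OE 1, 2 and 3 had 5.30, 13.2 and 8.17 FPKM. The groups did not overlap, and FGL1-OE 2 was the highest. THOC1 encodes the human counterpart of HPR1, a founding subunit of yeast THO. The difference was 3.23 ± 0.34 (SE, n = 3 per group) on the log2(FPKM + 1) scale, which depends on the pseudocount of 1 because of the zeros. The adjusted p was 0.112 with limma, above the threshold of 0.05.

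THOC6-201 showed the same pattern at a lower level, with 0 in each NC library, whereas FGL1-OE 1, 2 and 3 had 4.26, 2.18 and 2.73 FPKM. Again the groups did not overlap, and FGL1-OE 1 was the highest. THOC6 encodes a WD-repeat subunit of THO. The difference was 1.99 ± 0.27 (SE, n = 3) on the log2(FPKM + 1) scale, with an adjusted p of 0.215 (limma). Of all 33090 transcripts, 11 (0.0332%) were listed at 0 in all 3 NC libraries and at 2 FPKM or more in all 3 FGL1-OE libraries, and 2 of the 11 were these members, while 7 transcripts (0.0212%) and no member had the opposite pattern. This pattern was chosen after the values were seen. With 0.1 added to the FPKM instead of 1, the adjusted p of THOC1-221 was 0.022 and that of THOC6-201 0.0228 (limma). An FPKM of 0 can be a failed estimate: THOC7-204 was listed at 0 in NC 1 and FGL1-OE 3 but at 10.5 to 18.5 FPKM in the other 4 libraries.

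Against the listed transcripts that contain the exon, THOC1-221 made up 28.6%, 63.7% and 31.03% of the FPKM over the skipping in FGL1-OE 1, 2 and 3, with a mean of 41.1% ± 19.6 (SD, n = 3), and 0% in each NC library. The transcripts with the exon were THOC1-201, THOC1-219 and THOC1-220, whose summed level was 14.8, 40.3 and 6.52 FPKM in NC 1, 2 and 3 and 13.2, 7.50 and 18.2 FPKM in FGL1-OE 1, 2 and 3, so the groups overlapped in the form that includes the exon. For THOC6 the skipping form made up 9.73%, 5.92% and 6.96% in FGL1-OE 1, 2 and 3, with a mean of 7.53% ± 1.97 (SD, n = 3), and 0% in each NC library. THOC6-202, THOC6-207 and THOC6-209 contain exon 12 and summed to 39.8, 29.9 and 38.9 FPKM in NC 1, 2 and 3 and to 39.6, 34.7 and 36.5 FPKM in FGL1-OE 1, 2 and 3. No test is given for these shares, since the transcripts were chosen for being at 0 in NC. The skipping junction of THOC6-201 is in no other annotated transcript, and 29 of its words of 31 bases (2.38%) occur in no other GENCODE transcript. THOC1-221 has no such word, since its junction is also in 1 other annotated transcript that the table does not list, so its level was estimated from reads shared with other forms.

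**Figure D1:**
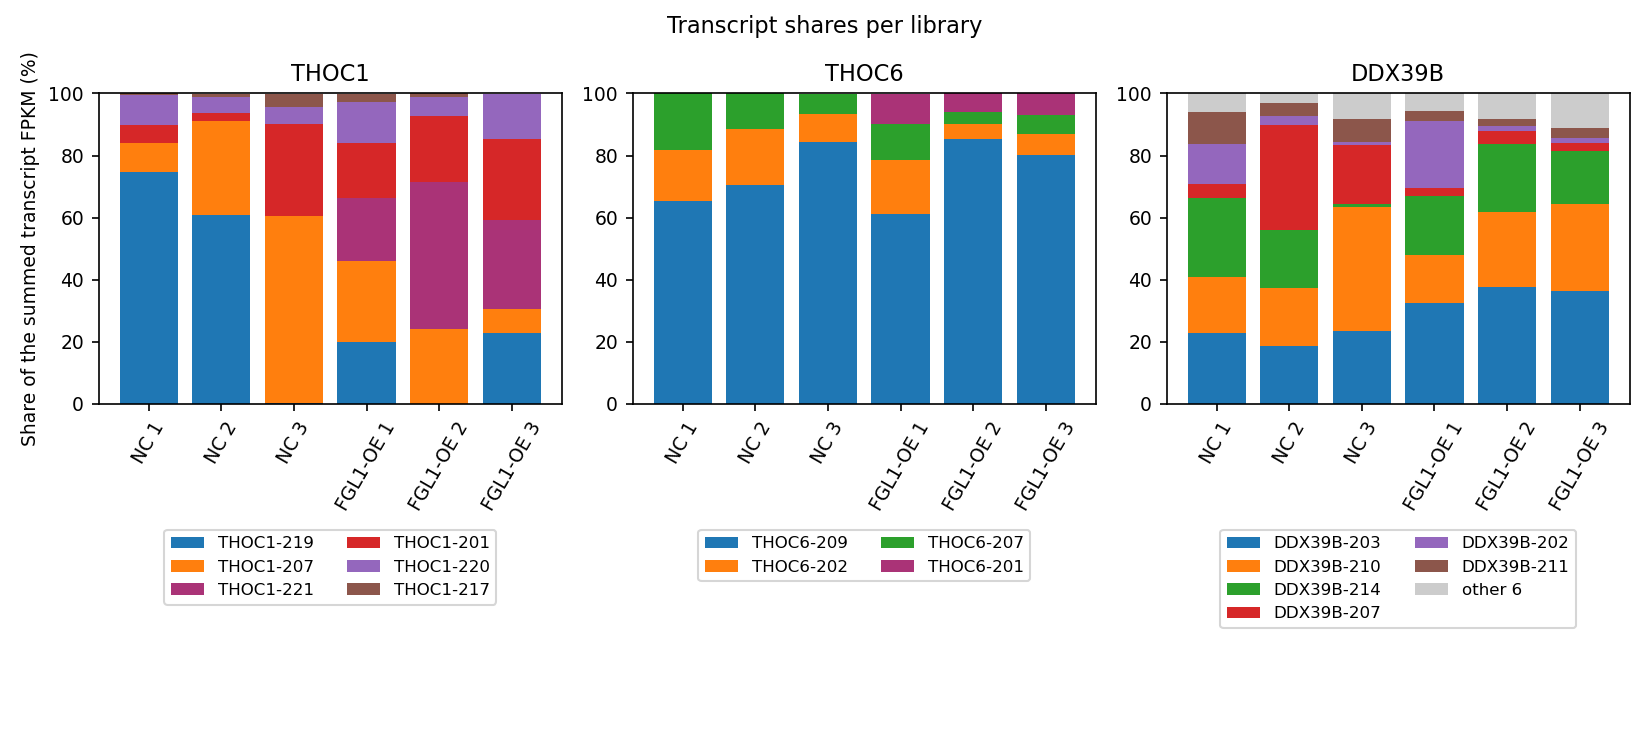
Share of each listed transcript in the summed transcript FPKM of THOC1, THOC6 and DDX39B (vertical axis, %) in each NC and FGL1-OE library. The purple THOC1-221 and THOC6-201 appear in the 3 FGL1-OE libraries only, with mean shares of 32.2% and 7.53%, while the other shares of THOC1 and DDX39B also differ widely between libraries of 1 group.

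At the gene level no member passed the test. Each of the 10 members passed the filter of a mean of at least 0.5 FPKM, and none had an adjusted p under 0.05 (each 1.00, limma), against 0.00832% of the 12017 genes tested, which was FGL1 alone. Without adjustment 0 of 10 members had a p under 0.05 (limma), against 2.01% of all genes tested. An ordinary linear model, which takes the spread of each gene on its own, gave 1, NXF1, at an unadjusted p of 0.0436 (3 against 3 libraries). That model also gave more of all genes tested than limma did, with the numbers listed under the dependence on processing. On the log2(FPKM + 1) scale 8 members were above 0 and 2 below, against 53.7% of all genes above 0. Their median change was 0.084 against 0.016 for all genes tested, and the median absolute change was 0.084 against 0.12. The groups did not overlap for 2 members, THOC5 and NXF1, both higher in FGL1-OE, against 4.09% of all genes tested. In RNA of a whole culture, a different share of cells and a different amount of RNA per cell cannot be told apart. The kit keeps strand, but whether the authors' estimates used it is not given, and several members overlap genes on the opposite strand (THOC1 with USP14, THOC6 with HCFC1R1 and BICDL2, ALYREF with ANAPC11, THOC7 with THOC7-AS1), so reads of such pairs may not be told apart.

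**Figure D2:**
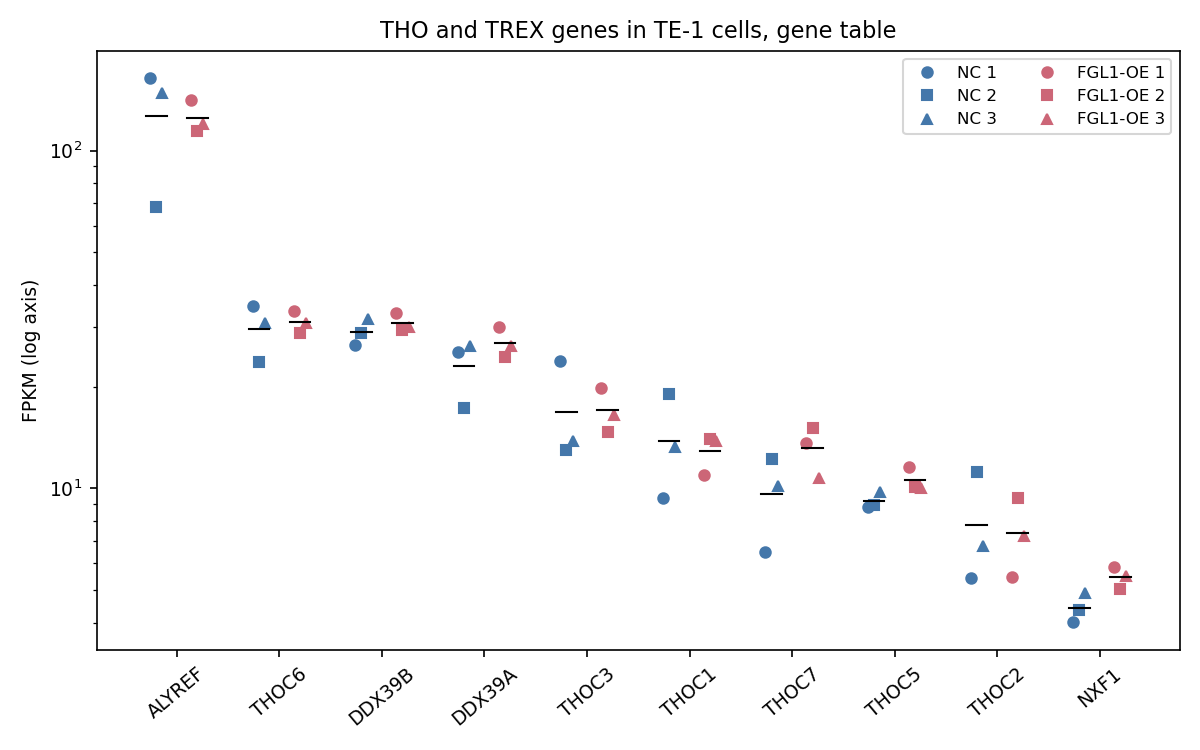
FPKM of the 10 THO and TREX genes (vertical axis, log scale) in the NC libraries (blue) and the FGL1-OE libraries (red), 1 point per library, with black bars at the group means (n = 3). The groups overlap in 8 genes and are apart only in THOC5 and NXF1, and NC 2 is the lowest NC library of ALYREF and the highest of THOC1 and THOC2.

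Among the THO subunits, THOC1 measured 9.35, 19.0 and 13.2 FPKM across NC 1, 2 and 3 and 10.9, 14.0 and 13.8 FPKM across FGL1-OE 1, 2 and 3, the order of libraries used for all values that follow. All FGL1-OE values lay inside the NC range, and the log2 change was -0.049 ± 0.25 (SE, n = 3). THOC2, the large scaffold subunit, measured 5.45, 11.2 and 6.73 FPKM across the NC libraries and 5.48, 9.39 and 7.23 FPKM across the FGL1-OE libraries. Here too the FGL1-OE libraries fell inside the NC range, with a log2 change of -0.044 ± 0.28. The ratio of THOC1 to THOC2 was 1.79 ± 0.15 in NC and 1.80 ± 0.27 in FGL1-OE (SD, n = 3; exact permutation p = 1).

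THOC3, a WD-repeat subunit, had 23.9, 13.0 and 13.8 FPKM among NC libraries, compared with 19.9, 14.7 and 16.5 FPKM under FGL1-OE. NC 1 was the highest of the 6 libraries, and the log2 change was 0.053 ± 0.25. THOC3 overlaps the same-strand gene AC138965.2. Of the 1559 words of 31 bases in THOC3-201, 1356 also occur in transcripts of other genes. Which genes hold them was not recorded, and reads could be split between them and THOC3. THOC6 showed 34.7, 23.6 and 30.8 FPKM in the 3 controls, against 33.6, 28.8 and 30.96 FPKM with FGL1-OE, with a log2 change of 0.079 ± 0.18. The groups overlapped, and NC 2 was the lowest of the 6 values.

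THOC5 and THOC7 are the subunits that pair with each other in the complex. THOC5 measured 8.78, 8.95 and 9.76 FPKM across the NC libraries and 11.6, 10.1 and 10.1 FPKM across the FGL1-OE libraries. Every FGL1-OE library was above every NC library, by a fold of the group means of 1.15, yet the log2 change of 0.19 ± 0.14 did not pass (unadjusted p = 0.231, limma). The exact permutation p was 0.1, the lowest that test can reach here. THOC7 had the largest point estimate of the 10 in the fit of all 6 libraries, with 6.50, 12.3 and 10.1 FPKM across NC libraries compared with 13.6, 15.1 and 10.7 FPKM under FGL1-OE. The lowest FGL1-OE library was below NC 2, so the groups overlapped, and the log2 change was 0.44 ± 0.24 with an unadjusted p of 0.107 (limma).

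The helicases DDX39A (URH49) and DDX39B (UAP56) are close paralogs. DDX39B had 26.5, 28.9 and 31.8 FPKM among NC libraries, compared with 33.2, 29.5 and 30.1 FPKM under FGL1-OE, with a log2 change of 0.089 ± 0.15. DDX39A showed 25.3, 17.3 and 26.4 FPKM in the 3 controls, against 30.1, 24.4 and 26.5 FPKM with FGL1-OE, with a log2 change of 0.24 ± 0.20. Both overlapped between the groups. The ratio of DDX39A to DDX39B was 0.795 ± 0.18 in NC and 0.871 ± 0.040 in FGL1-OE (SD, n = 3; exact permutation p = 0.7). Their coding sequences of 1281 and 1275 bases are 76.5% identical and share no word of 31 bases. Of the 1499 words of DDX39B-201, however, 1447 also occur in transcripts of other genes, and DDX39B overlaps the same-strand readthrough gene ATP6V1G2-DDX39B.

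ALYREF, the adaptor that binds both the helicase and NXF1, was the most abundant member, with 164, 68.0 and 148 FPKM across NC libraries compared with 141, 114 and 120 FPKM under FGL1-OE. NC 1 and NC 3 were above every FGL1-OE library and NC 2 was below all of them, and the log2 change over all libraries was 0.075 ± 0.32. NXF1, the export receptor, was the least abundant, with 4.01, 4.35 and 4.91 FPKM across NC libraries compared with 5.85, 5.03 and 5.52 FPKM under FGL1-OE. Its groups did not overlap, with a fold of the means of 1.24 and a log2 change of 0.25 ± 0.15 that did not pass (unadjusted p = 0.122, limma). The ratio of ALYREF to NXF1 was 28.9 ± 12.7 in NC and 22.9 ± 1.23 in FGL1-OE (SD, n = 3; exact permutation p = 0.7).

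**Figure D3:**
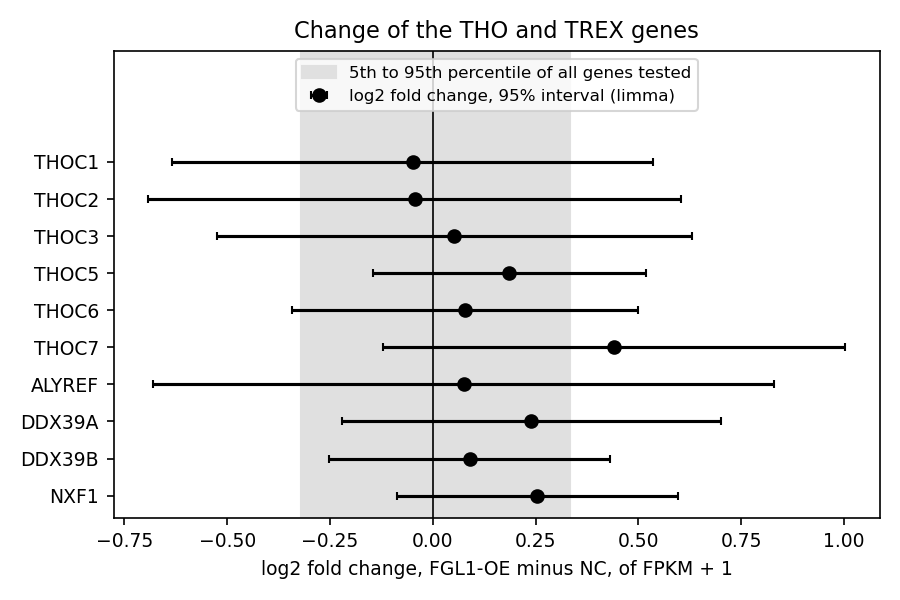
Log2 fold change of the 10 members, FGL1-OE minus NC, of FPKM + 1 (horizontal axis), with 95% intervals from limma over 3 against 3 libraries and, in grey, the 5th to 95th percentile of all genes tested (-0.32 to 0.33). Every interval includes 0, and only the point estimate of THOC7, 0.44, lies outside the grey band.

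In order of the mean gene-level FPKM over the 6 libraries, ALYREF (126) led, followed by THOC6 (30.4), DDX39B (30.0), DDX39A (25.0), THOC3 (17.0), THOC1 (13.4), THOC7 (11.4), THOC5 (9.87), THOC2 (7.58) and NXF1 (4.95). The summed FPKM of the listed transcripts gave other levels. Over the libraries they were 67.4 to 117 for DDX39B, 29.9 to 43.8 for THOC6 and 31.8 to 45.2 for THOC5. The order and the comparisons of neighbours below therefore hold for the gene-level values only. Only ALYREF was clear of its neighbour, since the ranges over the libraries overlapped in each of the other 8 neighbouring pairs. ALYREF was above THOC6 in 6 of 6 libraries, by 2.01 ± 0.27 on the log2 scale (SD, n = 6), and DDX39B was above DDX39A and DDX39A above THOC3 in 6 of 6. THOC6 and DDX39B were in either order in 3 of 6 libraries each, with a log2 ratio of 0.012 ± 0.22. The 6 THO subunits, which meet in 1 complex, thus ranged from 7.58 to 30.4 FPKM in mean gene-level FPKM.

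The differences between the NC libraries moved with the GC content of the genes. Over 11775 genes, 98.0% of those tested, the difference of NC 2 from the mean of NC 1 and NC 3 had a Spearman's rho of -0.794 with the GC content of the gene's most abundant transcript. This is a description across genes of 1 set of libraries. THOC2, THOC1 and THOC7, at 38.3%, 39.2% and 41.4% GC, were higher in NC 2 by 0.79, 0.72 and 0.54 on the log2(FPKM + 1) scale. ALYREF, DDX39A and THOC6, at 57.5%, 57.2% and 60.7% GC, had differences of -1.19, -0.55 and -0.45. THOC3 at 51.5% GC was at -0.46, and DDX39B, NXF1 and THOC5 were between -0.044 and -0.0086. Against the mean of the FGL1-OE libraries the rho with GC content was 0.685 for NC 1, -0.707 for NC 2 and 0.470 for NC 3, so that NC 1 and NC 2 differed from them in opposite directions. Without NC 2 the log2 changes of 5 members turned in sign, to -0.32 for ALYREF, -0.099 for THOC3, -0.072 for THOC6, 0.19 for THOC1 and 0.22 for THOC2. Without NC 1 the changes of these 5 kept their sign, at 0.31, 0.32, 0.20, -0.28 and -0.24. In the fit without NC 2, 2618 of the 12017 genes tested had an unadjusted p under 0.05 (limma). Among the members this was THOC7 alone, with a change of 0.62 ± 0.21 (unadjusted p = 0.0232, adjusted p = 0.199, limma). Its adjusted p ranged from 0.199 to 1.00 over all alternatives. THOC5 was at 0.17 and NXF1 at 0.25 in that fit without NC 2. The SD of log2(FPKM + 1) over the genes tested had a median of 0.308 in NC and 0.121 in FGL1-OE. The part of GC content in the members' changes was not tested beyond leaving out NC 1 or NC 2.

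**Figure D4:**
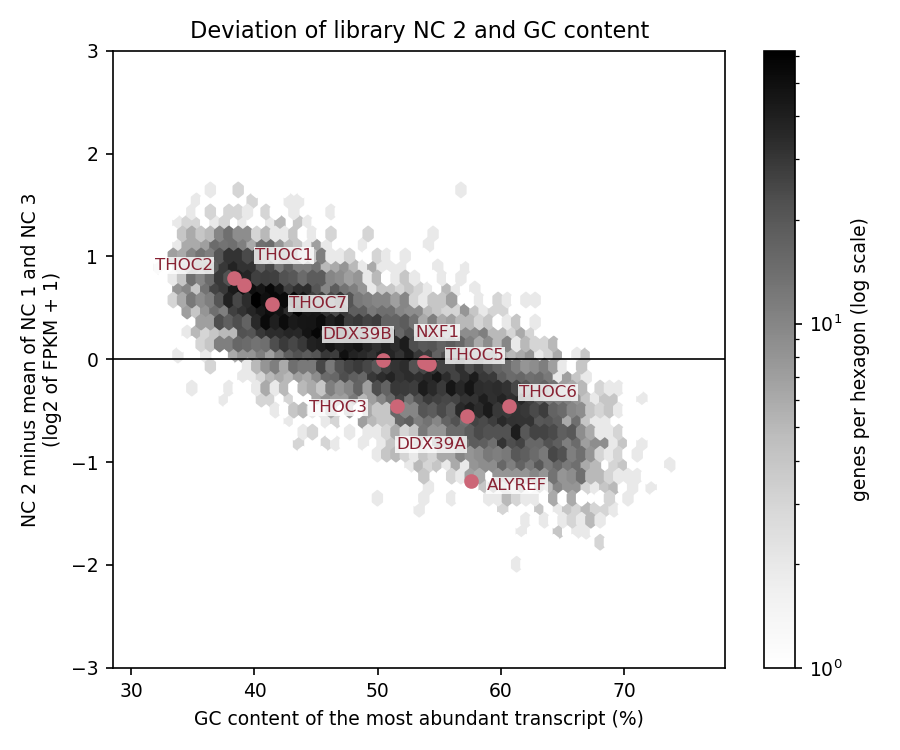
Difference of NC 2 from the mean of NC 1 and NC 3 in log2(FPKM + 1) (vertical axis) against the GC content of the most abundant transcript (horizontal axis, %), with all genes as grey hexagons shaded by number on a log scale and the 10 members in red. The members follow the slope of the other genes (rho = -0.794), from THOC2 at 0.79 to ALYREF at -1.19.

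Of the 55 member transcripts 53 passed the filter, and 0 had an adjusted p under 0.05 (limma), against 0.0165% of the 30330 transcripts tested. At an unadjusted p under 0.05 there were 6 member transcripts, against 3.53% of all transcripts tested. An ordinary linear model gave 5, for which no share over all transcripts is given here. Of the 6, 5 were higher in FGL1-OE, against 2.05% of all transcripts tested, and 1 was lower, against 1.48%. Of the 53 tested, 33 were above 0, against 51.9% of all transcripts. The groups did not overlap in FPKM for 5 that were higher, against 4.65% of all transcripts, and for 2 that were lower, against 3.57%. The median change was 0.18 against 0.017 for all transcripts tested, and the median absolute change was 0.41 against 0.26. Without FGL1-OE 2 the count of 6 fell to 3, and without NC 1 it was 9. Over all transcripts the number moved between 874 and 2738 as each library was left out. These member counts are therefore not read as changes of the members. The transcripts of a gene share exons, 20 of the 55 have no word of 31 bases that is absent from the other transcripts of their gene, and so their levels are not independent of each other.

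**Figure D5:**
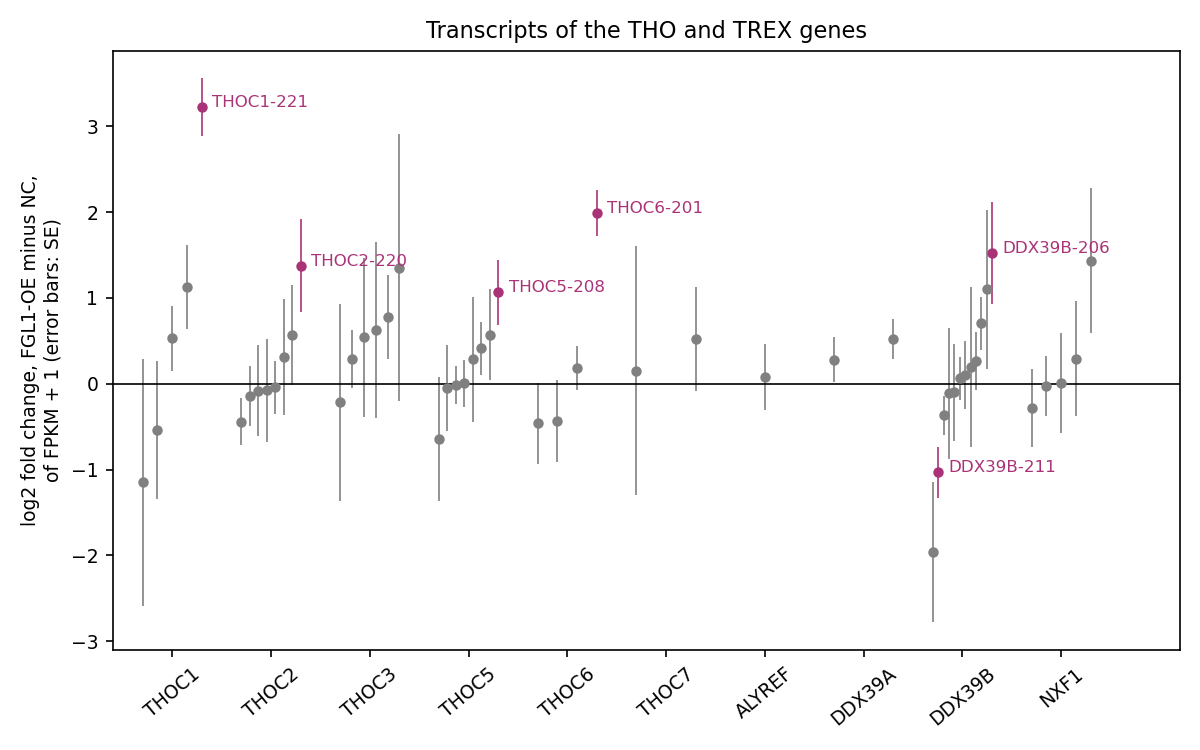
Log2 fold change, FGL1-OE minus NC, of FPKM + 1 (vertical axis, bars show the SE) of the 53 member transcripts tested, by gene and in rising order within a gene. The 6 labelled purple points have an unadjusted p under 0.05, among them THOC1-221 at 3.23 and THOC6-201 at 1.99, and values of both signs occur within 7 of the 10 genes.

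As shares of the summed transcript FPKM of their gene, 54 member transcripts could be compared. The groups did not overlap for 5 that were higher in FGL1-OE, against 4.85% of all transcripts compared, and for 4 that were lower, against 4.46%. Leaving out NC 1 gave 16 in place of 9 and leaving out FGL1-OE 1 gave 15, as fewer libraries overlap less easily. The share over all transcripts is not given for these fits, so the counts are not read as a result about the members. Besides THOC1-221, at 20.4%, 47.6% and 28.6% in FGL1-OE 1, 2 and 3, and THOC6-201, the higher shares were those of THOC2-220, THOC3-203 and DDX39B-203. The lower ones were those of DDX39A-215, which did not pass the filter, DDX39B-207, DDX39B-211 and THOC5-206. They were picked because they do not overlap, so no test of each is given.

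DDX39B had 12 listed transcripts, the most of any member, and 3 of the 9 shares that did not overlap. DDX39B-203, an annotated fragment of 561 bases with an incomplete coding end, made up 22.9%, 18.6% and 23.4% of the gene in NC 1, 2 and 3 and 32.4%, 37.5% and 36.3% in FGL1-OE 1, 2 and 3. The means were 21.6% ± 2.62 and 35.4% ± 2.66 (SD, n = 3), 13.8 percentage points apart. DDX39B-203 was picked because these shares do not overlap, so the size of this gap is no separate support. Its FPKM of 15.4 to 27.2 in NC and 26.4 to 40.8 in FGL1-OE overlapped, with a log2 change of 0.71 ± 0.31 (unadjusted p = 0.0615, limma). DDX39B-207, another fragment, was at 4.66%, 33.7% and 19.1% in NC and at 2.73%, 4.16% and 2.48% in FGL1-OE. NC 1 lay close to the FGL1-OE libraries, and the log2 change in FPKM was -1.96 ± 0.82 (unadjusted p = 0.0513). DDX39B-211 measured 7.09, 4.77 and 8.86 FPKM across the NC libraries and 2.65, 2.25 and 3.54 FPKM across the FGL1-OE libraries. Its groups were apart in FPKM and in share, with a log2 change of -1.03 ± 0.30 (unadjusted p = 0.0122, adjusted p = 1.00, limma). DDX39B-206 had 1.55, 0 and 0.270 FPKM among NC libraries, compared with 0.967, 4.37 and 6.31 FPKM under FGL1-OE, where FGL1-OE 1 lay below NC 1. All 4 are annotated as incomplete pieces of the gene, and 24 to 27 words of 31 bases in each occur in no other transcript of DDX39B.

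In THOC2, the transcript THOC2-220 showed 0.760, 0.923 and 0.546 FPKM in the 3 controls, against 1.32, 9.16 and 2.88 FPKM with FGL1-OE. FGL1-OE 2 was far above the other libraries, and the log2 change of 1.38 ± 0.54 (unadjusted p = 0.043, limma) was 0.79 without it. Of its 3211 bases, 1914 lie outside the exons of THOC2-201. THOC2-201, the full-length form of 39 exons and the most abundant on average, measured 7.44, 6.36 and 9.27 FPKM across the NC libraries and 7.00, 5.20 and 4.14 FPKM across the FGL1-OE libraries, with overlapping groups and a log2 change of -0.44 ± 0.28. In THOC5, THOC5-208 had 3.95, 8.19 and 3.42 FPKM among NC libraries, compared with 15.7, 10.1 and 8.96 FPKM under FGL1-OE. The groups were apart but NC 2 came close to FGL1-OE 3, and the log2 change was 1.07 ± 0.38 (unadjusted p = 0.0293, adjusted p = 1.00, limma). THOC5-206, the most abundant form of that gene, had 32.0% ± 3.29 of the gene in NC and 27.4% ± 1.65 in FGL1-OE (SD, n = 3), while its FPKM differed by a log2 change of -0.010 ± 0.22. THOC3-203 had 5.29% ± 2.42 in NC and 10.1% ± 1.04 in FGL1-OE.

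DDX39A was carried by 1 form in every library: DDX39A-201 held 93.9% to 97.6% of its summed FPKM in NC and 95.5% to 96.0% in FGL1-OE. The minor DDX39A-213 showed 1.42, 0.801 and 0.862 FPKM in the 3 controls, against 1.89, 1.84 and 1.94 FPKM with FGL1-OE. These groups were apart, with a log2 change of 0.52 ± 0.23 (unadjusted p = 0.0633, limma). DDX39A-215 held 2.59%, 1.01% and 0.816% in NC and 0.748%, 0.483% and 0.691% in FGL1-OE, at under 1.1 FPKM in each library.

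NXF1 is known for a transcript that keeps an intron and is nonetheless exported through a constitutive transport element, from which a shorter NXF1 protein is made. NXF1-211 keeps intron 10, of 1801 bases at chr11:62798576-62800376 (GRCh38), and its annotated coding stretch is 1068 bases against 1857 bases in NXF1-201. It measured 3.25, 2.95 and 5.95 FPKM across the NC libraries and 2.44, 5.16 and 4.20 FPKM across the FGL1-OE libraries. The ranges overlapped throughout, with a log2 change of -0.028 ± 0.35. As a share of NXF1 it was 42.4% ± 26.0 in NC and 31.5% ± 15.1 in FGL1-OE (SD, n = 3; exact permutation p = 0.7). Of its words of 31 bases 28.0% are in no other transcript of the gene, against a median of 2.67% over the member transcripts.

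The form named as most abundant changed between libraries in 7 of the 9 members with 2 or more listed transcripts, the exceptions being THOC6 (THOC6-209, 73.4% ± 9.80 of the gene in NC and 75.5% ± 12.8 in FGL1-OE) and DDX39A. In DDX39B it was DDX39B-203 in all 3 FGL1-OE libraries but DDX39B-214, DDX39B-207 and DDX39B-210 in NC 1, 2 and 3. In the other 6 it also changed within a group. THOC1-219 measured 12.3, 35.9 and 0.0368 FPKM across the controls and 5.18, 0 and 6.53 FPKM across the FGL1-OE libraries. It differs from THOC1-201 by a few bases only, and THOC1-201 had 0.950, 1.47 and 5.46 FPKM among NC libraries, compared with 4.61, 5.81 and 7.47 FPKM under FGL1-OE. THOC3-210 was at 45.1 FPKM in NC 1 and at 0 in NC 2 and NC 3. THOC3-201 was in turn at 0.946 FPKM in NC 1 and at 24.0 and 18.3 FPKM in NC 2 and NC 3. THOC7-201 held all of its gene in NC 1 and FGL1-OE 3 and 17.7% in FGL1-OE 2. The median SD of log2(FPKM + 1) over all transcripts tested was 0.502 in NC and 0.291 in FGL1-OE, above the medians of the genes.

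The other genes of the mRNA export route were described from lists of 60 genes, of which 55 were listed and tested. None had an adjusted p under 0.05 or an unadjusted p under 0.05 (limma). Of the 55, 37 were above 0 and 18 below on the log2 scale, with a median of 0.083 beside 0.016 for all genes tested, and this median was -0.031 without NC 1 and 0.18 without NC 2. The groups did not overlap for 2 that were higher and 1 that was lower, against 4.09% and 3.06% of all genes tested.

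Among 14 co-adaptors and cap-binding partners of TREX, 9 were above 0 and 5 below. ZC3H11A, a zinc finger protein that binds TREX, had the highest value, 0.54 ± 0.72 (SE), with libraries between 0.621 and 12.7 FPKM in NC alone. FYTTD1 (UIF), an alternative adaptor of NXF1, had the lowest at -0.67 ± 0.45. In TREX-2, which tethers export to the pore, 1 of 6 was above 0, ENY2 at 0.083 ± 0.17, and CETN2 was lowest at -0.22 ± 0.17. In the exon junction complex, which marks spliced mRNA, 6 of 10 were above 0, from MAGOHB at 0.23 ± 0.23 to PNN at -0.28 ± 0.21. Among 7 listed SR proteins and other adaptors of NXF1, 4 were above 0, and RBM15B was highest at 0.18 ± 0.14 with 12.1, 11.6 and 12.9 FPKM in NC and 14.8, 13.2 and 14.0 FPKM in FGL1-OE. SRSF3, an SR protein that shuttles with mRNA, was lowest at -0.19 ± 0.22. Of 15 genes of the nuclear pore and of release on its cytoplasmic side 14 were above 0, with a median of 0.15, from NUP153 at 0.34 ± 0.33 to RANBP2 at -0.0018 ± 0.26. The 3 listed exporters of other routes were above 0, with XPO1, the exportin of proteins and some RNAs, at 0.30 ± 0.37 and PHAX, its adaptor for snRNA, at 0.11 ± 0.22. None of these values was larger than the spread between the libraries by the test.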

How the data were processed

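RNA of 3 NC and 3 FGL1-OE libraries of TE-1 cells was enriched with oligo(dT) beads, made into libraries with a stranded kit and sequenced on an Illumina NovaSeq. The authors deposited FPKM per library for genes and for transcripts, and the submitters' processing notes name StringTie and GRCh37. The aligner and the versions are not given in the sources used here. The authors also deposited their own comparison, as log2 values, a fold ratio and p-values or q-values, which was not used. Columns without a known sample numbered 0.

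Features whose mean FPKM over all 6 libraries reached 0.5 (12017 genes, 30330 transcripts) were tested with limma 3.58.1 (R 4.3.3; lmFit, eBayes) on log2(FPKM + 1), without covariates, with Benjamini-Hochberg adjustment over each whole table. Fold changes on this scale understate the change of low genes. For single values the exact permutation test was two-sided and can reach 0.1 at the lowest. Shares are percentages of the summed FPKM of a gene's listed transcripts. All 55 member transcripts were matched to GENCODE v29 (GRCh38) by identifier for sequence, exons and words of 31 bases, with Python 3.11.15. FPKM give no read counts, so no counting intervals were computed.

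The text names FGL1, all members, the most abundant transcript of each member with 2 or more, member transcripts with an unadjusted p under 0.05 or a share that does not overlap between groups, and the highest and lowest gene of each export list. Other transcripts were chosen after their values were seen. Members and lists were chosen with earlier results of these data known. Alternatives were a pseudocount of 0.1, no filter, a filter of 1 FPKM, quantile normalization, rescaling of each library to TPM, an ordinary linear model, a replicate block, leaving out each library, summed transcripts as gene level and shares of filtered transcripts. The code was tested on simulated data.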

Additional observations from a re-analysis of the deposited data

How the results depend on the processing

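The number of transcripts with an adjusted p under 0.05 was 5, and became 29 with a pseudocount of 0.1, 3 with an ordinary linear model and 0 with a replicate block in limma (1053 at an unadjusted p under 0.05). With the pseudocount of 0.1 the 29 included THOC1-221 (6.39, adjusted p = 0.022) and THOC6-201 (4.93, adjusted p = 0.0228), whose adjusted p reached 0.823 and 1.00 under other alternatives. The ordinary linear model raised the number of genes from 1 to 2, that of genes at an unadjusted p under 0.05 from 242 to 374, and that of member genes from 0 to 1. Same-numbered libraries of the groups had deviations that correlated at 0.345, 0.282 and -0.061, and 4 of 6 libraries correlated best with their own number. The sources do not say whether the numbers pair the libraries, and these values do not settle it. The main fit was left unpaired for lack of a stated pairing. The block gave 8 in place of 6 member transcripts at an unadjusted p under 0.05.

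Leaving out each library gave 1 to 7 genes and 1 to 28 transcripts, 137 to 2618 genes and 874 to 2738 transcripts at an unadjusted p under 0.05, 0 to 1 member genes, 3 to 9 member transcripts, and 10 to 16 member shares that did not overlap, with the highest numbers of genes and transcripts without NC 2. The median change of the members was 0.091 to 0.20 and that of the export list -0.031 to 0.18. Of the 10 members 5 kept their direction in every alternative (THOC5, THOC7, DDX39A, DDX39B and NXF1). Leaving out 1 library moved THOC1 between -0.28 and 0.19, THOC2 between -0.24 and 0.22, THOC3 between -0.099 and 0.32, THOC6 between -0.072 and 0.20 and ALYREF between -0.32 and 0.31. It moved THOC3-201 between -0.54 and 1.30, THOC5-206 between -0.096 and 0.053 and NXF1-211 between -0.21 and 0.23. With summed transcripts as the gene level THOC1 was at 0.054 and THOC2 at 0.14. The causes were not tested. The other 14 of 17 tested named transcripts kept their direction. The depth of the libraries is unknown, so the limits it sets cannot be given.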
